A study of Mus musculus with 4 samples.

Results

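The genes described here encode 9 proteins of the red cell surface that carry blood group antigens or sit beside them in the membrane: glycophorin C (Gypc), the Rh-associated glycoprotein (Rhag), the Rh protein (Rhd), Kell (Kel), the Scianna antigen carrier (Ermap), the Landsteiner-Wiener antigen carrier (Icam4), CD44, CD47 and aquaporin 1 (Aqp1). They were taken by symbol from a table of 23936 genes, and all 9 had a row. Of these, 8 averaged 1 FPKM or more across the libraries and are called measured, as were 8964 genes in all. Aqp1 was listed at 0 in all 4 libraries. FPKM divides the fragments of a gene by its length and by the library's mapped total, so levels of different genes can be set side by side.

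RNA came from G1ER cells, a mouse erythroblast line without its own GATA1 that carries a fusion of GATA1 with the estrogen receptor and matures when beta-estradiol is added. Wild-type cells and a Chd7-/- line (CHD7 is a chromodomain helicase) each gave 1 library at 0 h and 1 at 24 h of estradiol, so no difference has a replicate check and no p-value was computed. All 4 cultures shared a medium with erythropoietin and stem cell factor. Genotype and time follow the sample titles, since estradiol is the labelled treatment of every library, those titled 0 h included. Both knockout libraries carry the line name E4, and how many clones stand behind it is not stated. The fragments behind the FPKM scaling were about 15.0 M at 0 h and 17.75 M at 24 h for wild-type cells (M, mega), and 14.95 M and then 15.9 M for knockout cells, read from the step of low FPKM values. Chd7 itself was listed at 0 in all 4 libraries, as were Hmgcs1, Insig1 and Phgdh, which most cells use, so a listed 0 in this table need not be a measured absence. Of 15 listed erythroid markers 13 were measured. Their levels summed to 1166 FPKM at 0 h and 14573 at 24 h in wild-type cells, with 1753 and then 25167 in knockout cells. Globin genes made up most of these sums. Of the 13, 7 were at least 2-fold higher at 24 h in wild-type cells (1.86% of all measured genes) and 9 in knockout cells (3.38%). Nfe2 moved least, from 53.9 to 63.4 FPKM in wild-type cells and from 45.7 to 55.7 in knockout cells. Lymphoid markers had 8 of 9 genes at 0 in all libraries, among them Cd3e, and a summed level of at most 0.018 FPKM. The summed myeloid markers (5 of 10 at 0, Mpo and Elane included) lay between 6.49 and 13.3 FPKM and the megakaryocyte markers (4 of 10 at 0, Ppbp included) between 5.70 and 8.48.

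Blood group antigens are surface structures of red cells, and many of their carriers have work of their own. The Rh proteins form a membrane complex around RHAG, a channel for ammonia, and ICAM4 and CD47 join this complex. Glycophorin C ties the membrane to the spectrin skeleton through the skeleton protein encoded by Epb41 and MPP1, while Kell is an enzyme that cleaves endothelin and is bound to the membrane protein XK. CD44 binds hyaluronan, and its loss from the surface is used to stage mouse erythroblasts.

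Because G1ER cells mature through a GATA1 fusion, the promoters of the members were searched for the GATA motif, spelled AGATAA or TGATAA on either strand. RefSeq windows (GRCm38.p6) from 250 bases before to 50 after the start were at hand for 8 members, and Gypc had none. The motif was found in 6 of these 8, against 19% of 27025 promoters of the same length. It lay within 70 bases before the start in 5 of them, Rhag, Rhd, Icam4, Kel and Ermap, and at position -233 in Cd44. The 70-base limit was not part of the planned search. No share of all promoters was worked out for it, as the 19% covers the whole window. The 250 bases before the start are shown for these 6 genes, 5′ to 3′ on the strand of the gene, with GATA motifs on either strand in capitals.
Rhag promoter, chr17:40810899-40811148, plus strand: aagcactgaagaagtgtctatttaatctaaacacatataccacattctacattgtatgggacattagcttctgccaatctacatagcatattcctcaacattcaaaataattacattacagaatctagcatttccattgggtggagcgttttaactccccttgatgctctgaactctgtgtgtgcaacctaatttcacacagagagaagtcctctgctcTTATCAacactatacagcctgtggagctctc
Rhd promoter, chr4:134864286-134864535, plus strand: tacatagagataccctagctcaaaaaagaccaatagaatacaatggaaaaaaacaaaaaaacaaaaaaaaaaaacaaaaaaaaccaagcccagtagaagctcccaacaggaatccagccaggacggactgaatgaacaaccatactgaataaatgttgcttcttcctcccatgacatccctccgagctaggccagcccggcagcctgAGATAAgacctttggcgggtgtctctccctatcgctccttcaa
Icam4 promoter, chr9:21029182-21029431, plus strand: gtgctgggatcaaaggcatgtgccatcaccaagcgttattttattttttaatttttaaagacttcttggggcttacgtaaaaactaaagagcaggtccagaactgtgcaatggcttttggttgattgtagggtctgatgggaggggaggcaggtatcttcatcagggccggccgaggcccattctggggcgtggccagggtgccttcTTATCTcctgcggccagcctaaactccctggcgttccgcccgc
Kel promoter, chr6:41704326-41704575, minus strand: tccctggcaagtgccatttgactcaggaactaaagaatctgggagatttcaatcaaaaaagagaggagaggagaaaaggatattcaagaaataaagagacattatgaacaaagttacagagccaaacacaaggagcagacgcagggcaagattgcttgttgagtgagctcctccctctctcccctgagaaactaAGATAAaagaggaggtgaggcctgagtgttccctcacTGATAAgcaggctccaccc
Ermap promoter, chr4:119189996-119190245, minus strand: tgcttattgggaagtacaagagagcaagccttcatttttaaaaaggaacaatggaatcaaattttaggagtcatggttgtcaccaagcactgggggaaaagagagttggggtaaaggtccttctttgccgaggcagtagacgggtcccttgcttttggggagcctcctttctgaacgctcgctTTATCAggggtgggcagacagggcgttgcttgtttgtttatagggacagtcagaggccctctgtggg
Cd44 promoter, chr2:102901666-102901915, minus strand: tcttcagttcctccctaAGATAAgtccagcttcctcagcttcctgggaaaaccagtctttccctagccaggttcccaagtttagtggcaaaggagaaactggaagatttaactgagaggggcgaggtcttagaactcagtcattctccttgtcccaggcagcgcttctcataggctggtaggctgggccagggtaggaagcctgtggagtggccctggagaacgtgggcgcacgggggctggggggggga
Counted from the start, the first base of the motif stood at -31 in Rhag, -43 in Rhd, -43 in Icam4 and -67 in Ermap. Kel held both spellings, AGATAA at -56 and TGATAA at -19. Starts differ between annotations: GENCODE M21 begins Icam4 59 bases further upstream, which places its motif inside the transcript, and the outermost RefSeq start of Rhag lies 50 bases further upstream. Of the other motifs searched on both strands, CCNCNCCC, bound by Kruppel-like factors, was found in Rhd, Icam4, Cd44 and Aqp1 (49.1% of all promoters), and TGTGGT, bound by RUNX factors, in Rhag and Aqp1 (16.9%). The E-box CANNTG was found in Rhd, Icam4, Kel and Aqp1 (72.1%). The promoter windows of Cd47 held none of these letters, but they lie at its inner starts: the outermost start of Cd47 is 4326 bases further upstream in RefSeq and 55121 in GENCODE, and no window there was searched. CANNTG and CCNCNCCC overlap no GATA match, and in Rhd a match of each overlaps the other just past the start. A match is a string of letters and no measurement of binding.

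**Figure D1:**
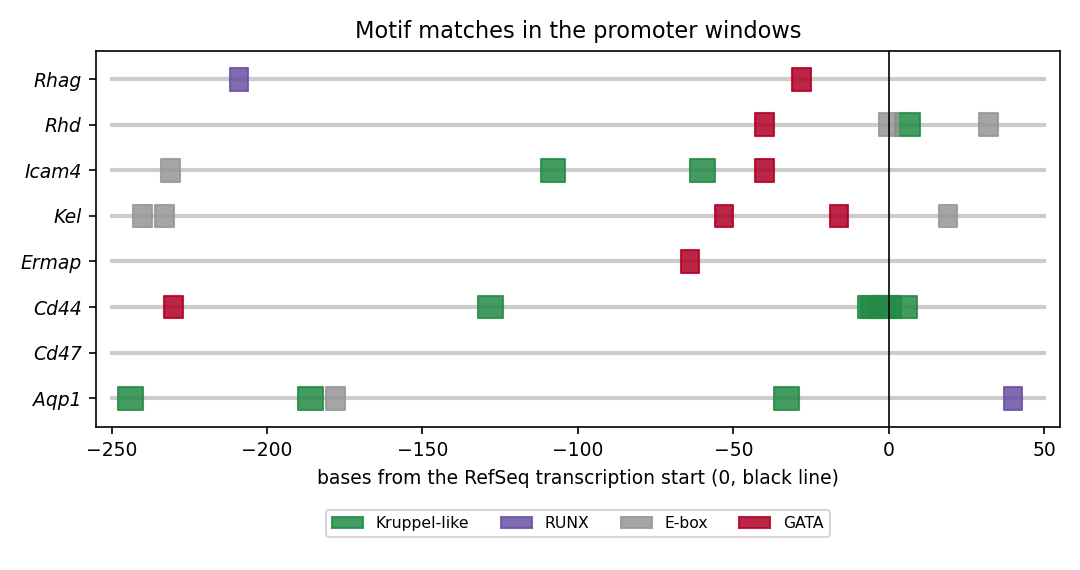
Motif matches in the promoter windows of 8 members, in bases from the RefSeq start (black line), with 1 row per gene and a coloured block for each match on either strand. The GATA blocks of Rhag, Rhd, Icam4, Kel and Ermap lie within 70 bases before the start and that of Cd44 at -233. No share of all promoters was worked out for the 70-base stretch.

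At 24 h of estradiol the group was spread over a wide range of responses. In wild type 4 of the 8 measured members, Gypc, Rhd, Icam4 and Kel, were at least 2-fold higher at 24 h, against 1.86% of all measured genes, and 0 were at least 2-fold lower (1.06%). The same 4 genes were at least 2-fold higher in knockout cells, where 3.38% of measured genes were and 3.64% were lower. Of all measured genes, 139 (1.55%) were at least 2-fold higher in both genotypes, which share no library. In all, 7 of 8 members were above 0 in each genotype, where 35.9% of measured genes were in wild-type cells and 37.4% in knockout cells: Rhag, Ermap and Cd47 were also higher at 24 h, by less than 2-fold, and Cd44 was lower, in both genotypes. The median log2 ratio of the 8 members was 1.01 in wild-type cells and 1.21 in knockout cells, where the medians of all measured genes were -0.11 and -0.12. Ratios here are of FPKM + 1, a scale that shrinks the ratios of low genes, and each ± is a 95% half-width for counting error alone, worked out from the approximate depth and the shortest coding transcript of the gene. The shortest transcript gives the widest half-width, so a ratio called within counting error could lie beyond it on a longer transcript.

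**Figure D2:**
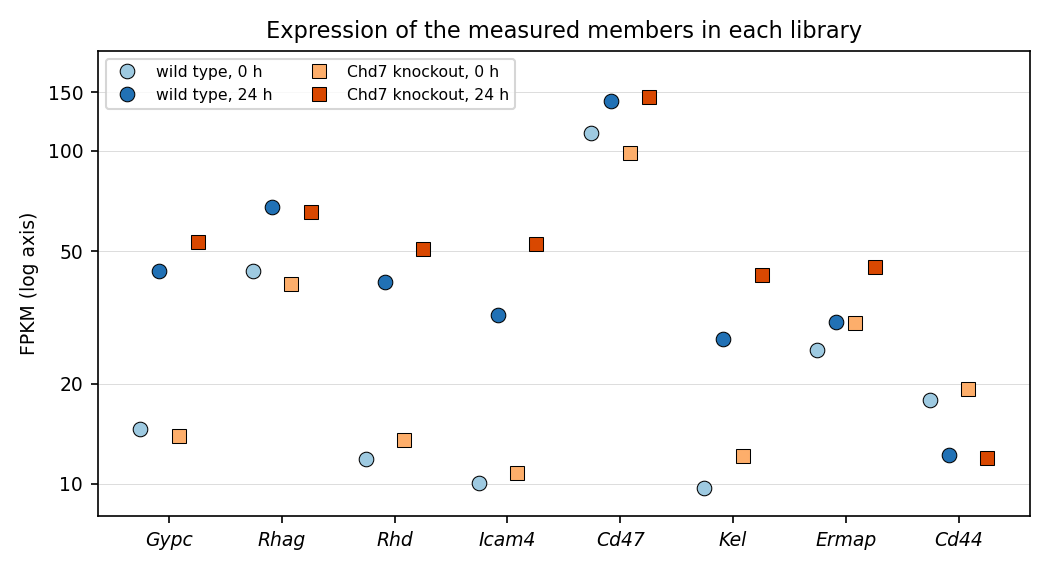
FPKM on a log axis for the 8 measured members, 1 point per library, with circles for wild type and squares for the Chd7 knockout, pale at 0 h and dark at 24 h. The 24 h points of Gypc, Rhd, Icam4 and Kel stand apart from their 0 h points in both genotypes, and those of Cd44 lie below them.

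Glycophorin C (chromosome 18, 32528320 to 32560034, minus strand, GRCm38) stood at 14.6 FPKM in wild-type cells at 0 h, 43.6 at 24 h, 13.9 in knockout cells at 0 h and 53.3 at 24 h. Both 24 h libraries were above both 0 h libraries, and the knockout had the highest value of the 4. The log2 ratio of 24 h over 0 h was 1.52 ± 0.26 in wild-type cells and 1.86 ± 0.26 in knockout cells, rank 86 and rank 88 from the top among 8964 genes. Mpp1, a partner of glycophorin C at the skeleton, stood at 8.51 FPKM at 0 h and 16.3 at 24 h in wild-type cells, and at 9.97 and then 21.6 in knockout cells. Gypc over Mpp1 within a library, a ratio that no scaling between libraries can move, was 1.71 and then 2.68 in wild-type cells, and 1.40 and then 2.47 in knockout cells. The row of Epb41, under its older symbol, had log2 ratios of 0.52 in wild-type cells and 0.54 in knockout cells.

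Within the Rh complex the channel subunit and the antigen carrier moved by different amounts. Rhag (chromosome 17, 40811099 to 40844094, plus strand) stood at 43.7 FPKM in wild-type cells at 0 h, 67.9 at 24 h, 39.8 in knockout cells at 0 h and 65.4 at 24 h. The genotypes lay close together at each time, and the log2 ratios were 0.62 ± 0.11 and 0.70 ± 0.11 in wild-type cells and the knockout. Rhd (chromosome 4, 134864536 to 134896172, plus strand), the only Rh antigen gene of the mouse, stood at 11.9, 40.3, 13.6 and 50.8 FPKM in the same order. Its log2 ratios were 1.68 ± 0.18 in wild-type cells and 1.83 ± 0.17 in knockout cells, the highest of the members in wild-type cells. Rhag was above Rhd in every library, and the ratio of Rhag to Rhd went from 3.67 at 0 h to 1.68 at 24 h in wild-type cells and from 2.93 to 1.29 in knockout cells. Of the other genes of the family, Rhbg and Rhcg, ammonia transporters of other tissues, were listed at 0 in all 4 libraries.

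Icam4 (chromosome 9, 21029432 to 21030596, plus strand), an adhesion molecule that binds integrins of neighbouring cells, stood at 10.1 FPKM in wild-type cells at 0 h, 32.1 at 24 h, 10.8 in knockout cells at 0 h and 52.4 at 24 h. The 0 h libraries were nearly equal, and the knockout was the higher of the 24 h libraries. Its log2 ratio was 1.58 ± 0.24 in wild-type cells and 2.18 ± 0.23 in knockout cells, the highest of the members there (rank 54 of 8964). The antisense gene Gm47079 overlaps Icam4 in GENCODE, and without a stated strand setting their reads cannot be told apart. Of the ICAM genes and integrins listed with it, 5 of 10 were measured and 0 reached 2-fold in any of the 5 comparisons. Of all measured genes, from 0.435% to 3.64% did so per comparison and direction, so a count of 0 does not set these genes apart. Among them Itga4, the alpha subunit of a receptor for fibronectin, stood at 30.2 FPKM at 0 h and 15.6 at 24 h in wild-type cells, and at 29.2 and then 17.5 in knockout cells.

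Cd47 (chromosome 16, 49851328 to 49912503, plus strand), the surface signal that restrains uptake by macrophages through their receptor SIRPA, was the most abundant member in every library. It stood at 113.5 FPKM in wild-type cells at 0 h, 141 at 24 h, 98.5 in knockout cells at 0 h and 145 at 24 h. The log2 ratios were 0.31 ± 0.09 in wild-type cells and 0.56 ± 0.09 in knockout cells. The 4 genes listed with Cd47, those of its ligands SIRPA and thrombospondin 1 (Sirpa and Thbs1) among them, were at 0 in all 4 libraries.

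Kel (chromosome 6, 41686329 to 41704334, minus strand) stood at 9.71 FPKM in wild-type cells at 0 h, 27.2 at 24 h, 12.2 in knockout cells at 0 h and 42.4 at 24 h. Both 24 h libraries were above both 0 h libraries, with log2 ratios of 1.40 ± 0.43 in wild-type cells and 1.72 ± 0.39 in knockout cells. Its partner Xk stood at 12.1 and then 9.68 FPKM in wild-type cells, and 12.2 and then 11.7 in knockout cells, so that no such difference was seen for it. The ratio of Kel to Xk within a library was 0.80 at 0 h and 2.81 at 24 h in wild-type cells, and 1.00 and 3.62 in knockout cells. A further locus, Gm37527, overlaps Kel on the same strand in GENCODE.

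**Figure D3:**
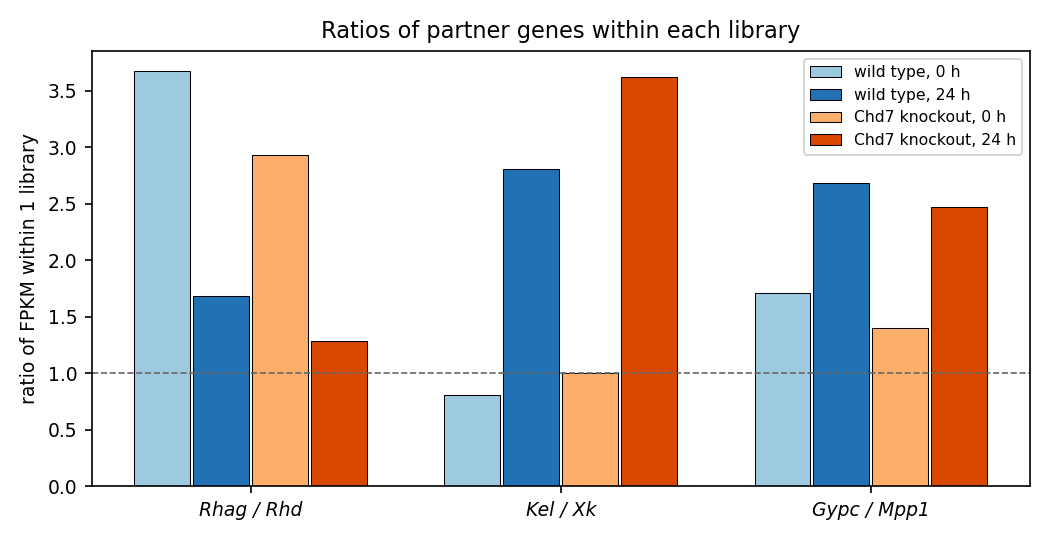
Ratio of the FPKM of a member to that of a partner gene within each library, with 1 bar per library from 0 and a dashed line at equal levels. Rhag over Rhd was lower at 24 h, and Kel over Xk and Gypc over Mpp1 higher, in both genotypes.

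Ermap (chromosome 4, 119175457 to 119190013, minus strand), a transmembrane protein of the butyrophilin family, differed little between times in wild-type cells. It stood at 25.3 FPKM in wild-type cells at 0 h, 30.7 at 24 h, 30.4 in knockout cells at 0 h and 44.8 at 24 h. The wild-type 24 h library and the knockout 0 h library were nearly equal, and the knockout at 24 h was above the other 3. The log2 ratios were 0.27 ± 0.23 and 0.54 ± 0.21. Of its 7 listed butyrophilin relatives, 1 was measured. This was Btn1a1, at 0.70 and then 2.12 FPKM in wild-type cells, and 0.35 and then 3.63 in knockout cells.

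Cd44 (chromosome 2, 102811141 to 102901669, minus strand) was the member lower at 24 h in both genotypes, although with libraries scaled to an equal sum its ratio in knockout cells turned to 0.38. It stood at 17.9 FPKM in wild-type cells at 0 h, 12.3 at 24 h, 19.3 in knockout cells at 0 h and 11.98 at 24 h. Both 24 h libraries were below both 0 h libraries, with log2 ratios of -0.51 ± 0.21 and -0.65 ± 0.22. In bulk RNA, fewer cells with a transcript and less of it per cell cannot be told apart. Of the genes listed with it, Msn (moesin, which links CD44 to actin) stood at 26.7 and then 16.0 FPKM in wild-type cells, and 28.4 and then 12.4 in knockout cells, and Rdx (radixin) at 104 and 81.6 and at 107 and 79.7. Kit, another surface marker of early erythroblasts, stood at 39.4 and then 20.4 FPKM in wild-type cells, and 61.3 and then 17.1 in knockout cells. Of 12 markers of basophils and of mast cells, the latter of which also carry CD44 and KIT, 5 were measured, and Mcpt8 and Mcpt4 were at 0 in all libraries. Of the 5, 3 were at least 2-fold lower at 24 h in both genotypes (1.06% and 3.64% of all measured genes). Cpa3, a mast cell protease, stood at 11.2 and then 1.16 FPKM in wild-type cells, and 24.6 and then 0.56 in knockout cells. Ms4a2, a subunit of the IgE receptor, stood at 8.01 and then 1.14 FPKM in wild-type cells, and 19.4 and then 0.74 in knockout cells. Il1rl1, the receptor of interleukin-33, stood at 17.2 and then 3.47 FPKM in wild-type cells, and 19.6 and then 1.45 in knockout cells. These 3 were lower at 24 h along with Cd44 and Kit, in both genotypes. Hdc, another of the 5, was instead higher at 24 h. Its log2 ratios, below 2-fold, were 0.57 in wild-type cells and 0.26 in knockout cells. Prg2, a protein of eosinophil granules, was higher as well, at 0.19 and then 13.2 FPKM in wild-type cells, and 0.38 and then 49.7 in knockout cells. It made up most of the summed level of the 12 at 24 h, which was 37.7 FPKM at 0 h and 20.6 at 24 h in wild-type cells, with 66.1 and 55.2 in knockout cells. Their part in the Cd44 values was not tested.

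Aqp1 (chromosome 6, 55336299 to 55348555, plus strand), the water channel that carries the Colton antigen, was listed at 0 in every library and gives no comparison. In the table as a whole 10411 genes (43.5%) were listed at 0 in all 4 libraries. Of 10 other aquaporins 4 were measured. Aqp3, a channel for water and glycerol that carries the GIL antigen in humans, went from 1.88 to 17.96 FPKM in wild-type cells and from 1.61 to 16.5 in knockout cells. Aqp8 stood at 0.05 and then 0.41 FPKM in wild-type cells, and 0.05 and then 3.88 in knockout cells. Aqp9 and Aqp11 stayed between 12.1 and 17.9 FPKM.

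**Figure D4:**
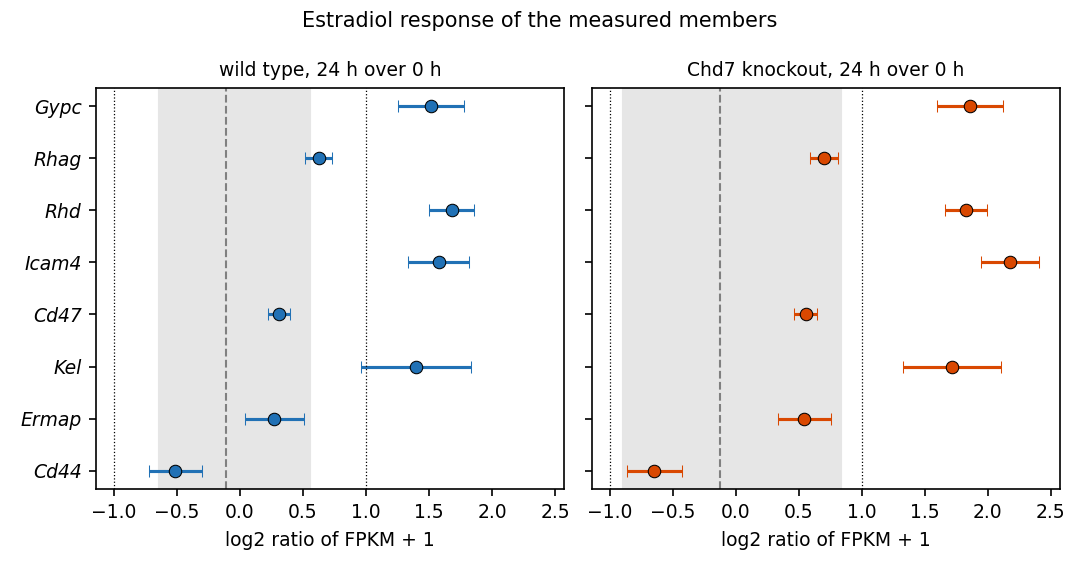
Log2 ratio of FPKM + 1 at 24 h over 0 h for each measured member, wild type on the left and knockout on the right; points are single ratios and bars 95% counting half-widths. The grey band spans the central range (percentiles 5 to 95) of 8964 genes, the dashed line is their median and dotted lines mark 2-fold; Gypc, Rhd, Icam4 and Kel lie beyond the 2-fold line in both panels.

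The order of levels was not the same before and after estradiol. At 0 h in wild-type cells it ran Cd47, Rhag, Ermap, Cd44, Gypc, Rhd, Icam4 and Kel, and the last 4 followed each other within counting error. At 24 h Cd44 was the lowest in both genotypes, and Cd47 and Rhag were still the first and second. In knockout cells at 24 h Gypc, Icam4 and Rhd, at 53.3, 52.4 and 50.8 FPKM, differed from their neighbours by no more than counting error among themselves. The highest member was 11.7-fold above the lowest in wild-type cells at 0 h and 11.5-fold at 24 h, and 9.13-fold and 12.1-fold in knockout cells.

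Before estradiol, knockout and wild-type cells held similar levels of these transcripts. At 0 h 0 of 8 members were at least 2-fold higher in knockout cells (0.435% of all measured genes) and 0 were lower (0.647%), while 5 of 8 lay above 0 (34.6%), with log2 ratios from -0.20 (Cd47) to 0.30 (Kel) and a median of 0.10. Counting error alone covered the ratios of Gypc (-0.06 ± 0.33), Rhd (0.18 ± 0.22), Kel (0.30 ± 0.51), Icam4 (0.09 ± 0.30) and Cd44 (0.10 ± 0.20). It did not cover those of Cd47 (-0.20 ± 0.10), Rhag (-0.13 ± 0.12) and Ermap (0.26 ± 0.24). Directions at 0 h hang on the scaling, because small RNA and predicted loci held 68.4% of the summed FPKM of the knockout at 0 h and from 28.1% to 41.8% in the other libraries. With libraries scaled to an equal sum, Rhd, Kel, Ermap, Icam4 and Cd44 turned lower in knockout cells along with most genes (all-gene median -0.78 in place of -0.07). Gypc turned slightly higher (0.02) when small and predicted loci were left out before that scaling.

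After 24 h the members lay apart by genotype in part. In knockout cells 6 of 8 were above wild type at 24 h, where 38.1% of all measured genes were, and the median log2 ratio was 0.30 against -0.09 for all genes. None reached 2-fold in either direction, as 0.714% of genes did on the higher side and 1.14% on the lower. Icam4 led with a log2 ratio of 0.69 ± 0.15 (rank 204 of 8964), followed by Kel (0.62 ± 0.29), Ermap (0.53 ± 0.20), Rhd (0.32 ± 0.12) and Gypc (0.28 ± 0.18). These 5 ratios were beyond counting error and stayed above 0 in all 8 alternative settings. Only the settings that rescale the libraries could have turned a sign, since another added constant or another filter cannot. The ratio of Cd47 was 0.04 ± 0.08, that of Cd44 -0.03 ± 0.23 and that of Rhag -0.05 ± 0.09, within counting error, and the signs of Cd44 and Rhag turned with other scalings.

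**Figure D5:**
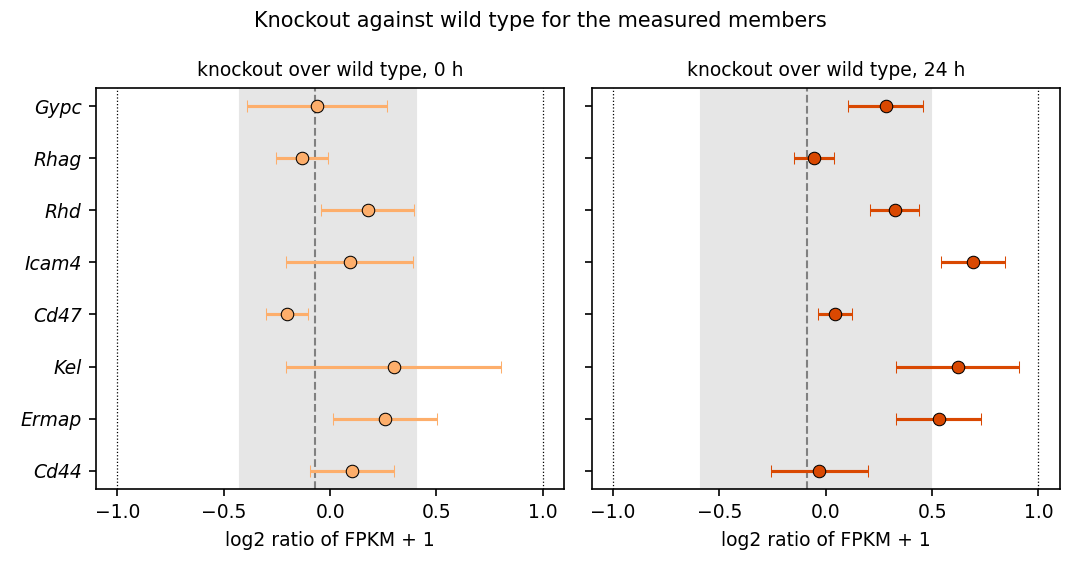
Log2 ratio of FPKM + 1 in knockout cells over wild type for each measured member at 0 h (left) and 24 h (right), drawn as points with 95% counting half-widths. The grey band is the central range (percentiles 5 to 95) of 8964 genes and dotted lines mark 2-fold; no point reaches 2-fold, and Icam4, Kel and Ermap lie beyond the band at 24 h.

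The log2 ratio of 24 h over 0 h was higher in knockout cells than in wild-type cells for 7 of 8 measured members, where 46.3% of all measured genes had a difference of log2 ratios above 0. No member differed by 1 or more in either direction (0.602% and 0.625% of genes). The difference, knockout minus wild type, was 0.60 ± 0.33 for Icam4, 0.34 ± 0.37 for Gypc, 0.32 ± 0.58 for Kel, 0.27 ± 0.32 for Ermap, 0.25 ± 0.13 for Cd47, 0.15 ± 0.25 for Rhd and 0.08 ± 0.16 for Rhag. It was -0.13 ± 0.30 for Cd44 and turned to 0.66 with libraries scaled to an equal sum. With half-widths from the shortest coding transcript, only Icam4 and Cd47 had a difference beyond counting error. Those of Kel, Ermap and Gypc would be narrower on their longest coding transcripts (2530 bases against 322 for Kel, 4551 against 606 for Ermap and 2180 against 612 for Gypc). All differences of response use the same 4 libraries as the other comparisons and are no separate evidence. In bulk cultures a further matured culture and a stronger response per cell cannot be told apart. Gata1 itself stood at 31.1 and then 38.2 FPKM in wild-type cells, and 46.7 and then 63.7 in knockout cells. Its log2 ratio of knockout over wild type was 0.57 at 0 h and 0.73 at 24 h. How far its row counts reads of the fusion is not stated, and its part in the differences between genotypes was not tested.

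Other carriers of blood group antigens spread over both directions. Of 27 with a row, 19 were measured, and 5 were at least 2-fold higher at 24 h in wild-type cells (1.86% of all measured genes) and 7 in knockout cells (3.38%), with 0 at least 2-fold lower in either (1.06% and 3.64%). The median log2 ratio was 0.18 in both genotypes, and 12 of the 19 lay above 0 in each (35.9% and 37.4%). Highest was Slc4a1, the anion exchanger that carries the Diego antigens (0.10 to 20.6 FPKM in wild-type cells, 0.23 to 40.7 in knockout cells). Aqp3 and Ache, the acetylcholinesterase that carries the Yt antigens (1.56 to 14.4 FPKM in wild-type cells, 2.17 to 35.9 in knockout cells), came next in wild-type cells. Ache was the carrier at least 2-fold higher in knockout cells than in wild type at 24 h (0.714% of all measured genes), with a log2 ratio of 1.26. Art4, the Dombrock carrier, had log2 ratios of 1.46 and 1.42, and Smim1, the Vel carrier, of 0.78 and 1.16. At the low end were Slc29a1, a nucleoside transporter (-0.62 and -0.66), Cd55, a complement regulator (-0.38 in wild-type cells and -0.58 in knockout cells), in wild-type cells also Slc44a2, a choline transporter-like protein (-0.40, and 0.05 in knockout cells), and in knockout cells also Cd151, a tetraspanin (-0.62, and -0.34 in wild-type cells). Of 8 glycosyltransferase genes that build carbohydrate antigens such as ABO, H and I, 0 were measured, and 3 of them were at 0 in all libraries.

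Most genes of the skeleton and its junctional partners were higher at 24 h. Of 14 measured genes 13 lay above 0 in each genotype (35.9% and 37.4% of all measured genes). At least 2-fold higher were 6 in wild-type cells (1.86% of all measured genes) and 10 in knockout cells (3.38%). In either genotype 0 were at least 2-fold lower (1.06% and 3.64%), and the median log2 ratios were 0.93 and 1.17. Sptb, the beta-spectrin gene, stood at 33.2 and then 132 FPKM in wild-type cells, and 34.3 and then 227 in knockout cells, and Dmtn, which bundles actin, at 0.24 and 4.99 and at 0.17 and 11.9. At 24 h 12 of the 14 were above wild type in knockout cells (38.1% of all measured genes) and 1 (Dmtn, 1.11) was at least 2-fold higher (0.714%). At the low end were the row of Epb42 under its older symbol (-0.33 and -0.32), Slc2a1, a glucose transporter (0.41 and 0.11), and Epb41 (0.52 and 0.54).

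Over the 4 libraries the members formed sets of like shape, measured by the root-mean-square difference of centred log2(FPKM + 1). Gypc and Rhd were the closest pair (0.09), Rhag and Cd47 followed (0.12), and Icam4 and Cd44 were the farthest apart (1.26). Among 6631 genes that averaged 5 FPKM or more, small and predicted loci left out, the nearest to Icam4 was Gpr146 (0.02), at 3.15 and then 11.3 FPKM in wild-type cells, and 3.43 and then 19.5 in knockout cells. The nearest to Kel was Myh7b (0.06), and to Rhd the kinase gene Pim1 (0.06). The nearest to Gypc was the peroxiredoxin gene Prdx6 (0.07), at 149 and then 392 FPKM in wild-type cells, and 132 and then 462 in knockout cells. Ermap was nearest to Wsb2, Cd44 to Pawr (0.01 each), Rhag to Fam50a and Cd47 to Clybl (0.02 each). With 4 points per gene many genes lie this close, and nearness here is a description of the libraries.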

How the data were processed

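The authors deposited 1 FPKM value per gene symbol and library. Per the submitters' processing notes, FastQC, cutadapt, TopHat2 2.0.11 and Cufflinks 2.2.1 were used with GRCm38; no source at hand states the annotation, the strand setting or the scaling of libraries. Per the labels' protocols, RNA was depleted of ribosomal RNA. From the deposited FPKM, 1 repeated header line was dropped, genes averaging 1 FPKM or more were kept, and log2 ratios of FPKM + 1 were formed for 5 comparisons, with 2-fold as the threshold. No test was possible with 1 library per group. Depth was read from 860 genes with a single GENCODE M21 transcript of at least 3 kb, as the value at which most low values were whole fragments: 55.7% to 67.1% were whole within 0.05 fragments, where 10.0% would be by chance, so depths are approximate. Counting half-widths cover counting error only. The step was tested on data simulated as whole fragments at a known depth. That test cannot show how well the step holds for real values that were not whole. Positions and promoters came from RefSeq GRCm38.p6. All 9 members, their direct partners, and up to 3 highest and 3 lowest genes of a list are named; Rhag over Rhd and Gypc over Mpp1 were set as ratios, and Kit, Itga4, Rdx and Phgdh named, after values were known. The members and all lists were chosen with earlier results of these data known. Python 3.11.15, numpy 2.4.6, pandas 2.3.3 and matplotlib 3.10.9 were used.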

Additional observations from a re-analysis of the deposited data

Results flagged for a closer look

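For 3 members the knockout lay on opposite sides of wild type before and after estradiol, and the difference was not tested. Gypc had a log2 ratio of knockout over wild type of -0.06 at 0 h and 0.28 at 24 h, the first within counting error. Cd44 had 0.10 and -0.03, both within counting error. Cd47 had -0.20 and 0.04, the second within counting error.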

How the results depend on the processing

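The counts of members at least 2-fold higher or lower were recomputed in 8 alternative settings for each of the 5 comparisons. They stayed within 1.5 times the reported count in all but scaling to an equal sum per library, which gave 7 members at least 2-fold higher at 24 h in the knockout in place of 4, and 5 members with a difference of responses of at least 1 in place of 0. That scaling lifts all genes, because the summed FPKM of the knockout at 0 h was 1604981 against 753591 to 923195 in the other libraries: 98.7% of the calls among all genes in the knockout were then higher, against 48.2%, and 98.2% against 49.1% for the difference of responses. In wild type the share was 84.6% against 63.7%, and for knockout over wild type at 0 h 2.46% against 40.2%. Relative to the median of all genes, the members' median was 1.33 in the knockout as reported and 1.42 with that scaling. Of the single ratios, 277 of 320 moved by less than counting error and 43 by more. The 277 include the settings that only change the filter, which cannot move a single ratio. The ratio of Cd44 in the knockout turned to 0.38 with the equal-sum scaling. Counted on shortest coding transcripts, Kel had the fewest fragments of the measured members, as few as 47 in a library. That transcript of Kel has 322 bases and its longest 2530, on which the fragments would be more. No paired analysis was possible because each group has 1 library and the labels give no replicate numbers.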
